A study of Capra hircus with 6 samples.

Results

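The MYC, MAX and MXD network is a set of transcription factors that share the partner MAX. The 10 network genes MYC, MYCN, MYCL, MAX, MXD1, MXD3, MXD4, MXI1, MNT and MGA were looked up by name in the deposited table of 15944 genes. Of these, 9 were listed and passed the filter on low counts, among 12588 genes tested. MYCN has no row in the table and was not analysed here.

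MYC, MYCN and MYCL form dimers with MAX that bind E-box DNA and activate genes for growth, ribosome production and cell division. The MXD proteins (MXD1, MXD3, MXD4 and MXI1) and MNT compete for MAX at the same sites and bring in SIN3 and histone deacetylases, which repress transcription. MXD genes are commonly expressed in cells that leave the cell cycle and differentiate, and MGA pairs with MAX in a Polycomb complex. In skin, MYC is known for its role in the growth and turnover of follicle and epidermal cells.

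The cells were wild-type secondary hair follicle dermal papilla cells (SHF-DPCs), grown as primary cultures from the scapular skin of Albas cashmere goats (Capra hircus) aged 3 years and used at passages 4 to 7. The ATRA group (3 libraries) received all-trans retinoic acid (ATRA), a vitamin A metabolite that binds retinoic acid receptors, at 100 µM for 24 h. The Control group (3 libraries) was cultured without ATRA. Cells of separate animals were treated per the methods, but the labels do not tie a library to an animal, so the p-values measure the spread between these libraries. The 6 libraries carry the same batch label.

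Total counts ranged from 35532339 to 38012771 per library. The TMM factors of edgeR, which correct for libraries dominated by a few genes, ranged from 0.842 to 0.851 in the Control group and from 1.16 to 1.20 in the ATRA group. ATRA replicate 2 stood apart from the other ATRA libraries, with a chi-square per degree of freedom of 19.2 and 17.9 over genes against 5.16 between the other pair. Of 10 dermal papilla and mesenchymal markers, 6 were tested. All 6 were lower with ATRA, against 38.7% of all tested genes. The call on LEF1 was lost with library size only (log2FC -0.06, adjusted p = 0.586 in edgeR's quasi-likelihood test). PROM1 (which encodes the papilla marker CD133), ALPL and CORIN each had 1 count in a single library and 0 in the other 5, and SOX2 had 0 to 16 counts. The other 6 markers were expressed in Control cells. In normalized CPM (counts scaled by the TMM-corrected library size), their means were 6582 for ACTA2, which encodes alpha smooth muscle actin, 1641 for VCAN and 865 for PDGFRA. Those of LEF1, WIF1 and VIM were 16.1, 2.87 and 19158. The paper reported positive immunofluorescence for CD133 and alpha smooth muscle actin in its purified cells, a measure of protein and not of transcripts.

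With an adjusted p under 0.05 (edgeR's quasi-likelihood test, two-sided, Benjamini-Hochberg adjustment over 12588 genes), 5 of the 9 network genes were higher with ATRA, against 40.9% of all tested genes. MXD4 was the only member that was lower, against 38.7% of all tested genes. MXD3, MNT and MGA did not pass the threshold. MXD1, MXI1 and MYCL rose by more than 2-fold, MYC and MAX rose by less, and MXD4 fell. With the study's thresholds (|log2FC| above 1 and an unadjusted p under 0.05), 3 members were higher and 0 lower, against 13.7% and 17.3% of all tested genes. The median log2 fold change (log2FC) was 0.28 over the 9 members and 0.04 over all tested genes. The normalized CPM of the groups did not overlap for 6 members, and the same held for 80.1% of all tested genes. Because no transcript lengths were at hand, levels were not compared between genes.

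**Figure D1:**
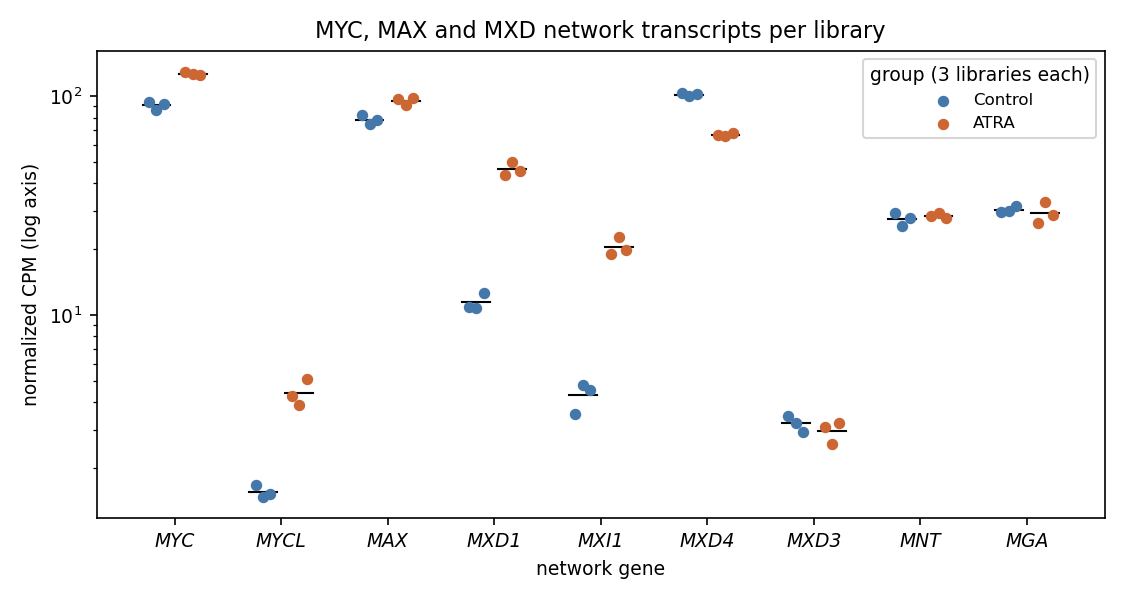
Normalized CPM (log axis) of the 9 tested network genes in the 3 Control and 3 ATRA libraries, with a black line at each group mean. The ATRA libraries lie above the Control libraries for MYC, MYCL, MAX, MXD1 and MXI1, below them for MXD4, and overlap for MXD3, MNT and MGA.

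MYC encodes the best-known activator of the network. Its counts were 2941, 2810 and 2965 in the Control libraries and 5588, 5560 and 5205 in the ATRA libraries. After scaling, these became 94.7, 86.9 and 92.3 normalized CPM in the Control group and 129, 126 and 126 with ATRA. Each ATRA library lay above each Control library, and the libraries of a group lay close to each other. MYC rose 1.39-fold, a log2FC of 0.48 (standard error 0.0572, adjusted p = 4.46e-07), at percentile 71.4 of the log2FC of all tested genes.

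MYCL, a second activator with a narrower expression range in tissues, was measured on few reads. Control libraries held 52, 48 and 49 counts, and ATRA libraries held 185, 171 and 211. The groups were apart, at 1.56 ± 0.101 normalized CPM without ATRA and 4.42 ± 0.623 with it (SD, n = 3 each). MYCL rose 2.82-fold, a log2FC of 1.498 (standard error 0.181, 95% interval 1.12 to 1.88, adjusted p = 4.93e-07). Per library, the log2 ratio of MYCL to MYC reads moved from -5.86 ± 0.0483 (SD, n = 3) to -4.85 ± 0.206 (SD, n = 3). With ATRA, MYCL had 0.0346 reads for each MYC read.

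MAX encodes the partner that the other members share. It had 82.4, 74.9 and 77.8 normalized CPM in the Control libraries and 96.9, 91.1 and 97.9 in the ATRA libraries. The groups were apart, with the lowest ATRA library above the highest Control library. MAX rose 1.22-fold (log2FC 0.28, standard error 0.0610, adjusted p = 0.000377), the smallest rise among the members called higher.

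MXD1 encodes a repressor classically induced during differentiation. Its counts were 337, 350 and 408 in the Control libraries and 1885, 2211 and 1892 in the ATRA libraries. In normalized CPM these were 10.9, 10.8 and 12.7 without ATRA and 43.6, 50.1 and 45.7 with it. No library of one group came near the other group. MXD1 rose 4.06-fold (log2FC 2.02, standard error 0.0879, adjusted p = 1.75e-13), at percentile 94.8 of all tested genes. Without ATRA replicate 2, which had the highest level, the log2FC was 1.95.

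MXI1 encodes a repressor of the same family, also named after its interaction with MAX. The Control libraries held 110, 155 and 147 counts and the ATRA libraries 824, 1004 and 818. In normalized CPM, MXI1 was at 3.54, 4.79 and 4.58 in the Control group and at 19.1, 22.8 and 19.8 with ATRA. It rose 4.76-fold (log2FC 2.25, standard error 0.121, adjusted p = 4.19e-12), at percentile 95.5. This was the largest log2FC of the 9 tested members. The 95% intervals of MXI1 (1.998 to 2.51) and MXD1 (1.83 to 2.20) overlapped, and the log2 ratio of MXI1 to MXD1 reads was -1.42 ± 0.224 without ATRA and -1.18 ± 0.0371 with it (SD, n = 3 each). Control and ATRA libraries overlapped on that ratio. Counts per gene cannot separate the isoforms of MXI1.

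MXD4 encodes a repressor that moved the other way. It had 103, 100.4 and 102 normalized CPM in the Control libraries and 66.7, 66.0 and 67.7 in the ATRA libraries, with a narrow spread in both groups. MXD4 fell to 0.655 times its Control level, a log2FC of -0.61 (standard error 0.0569, adjusted p = 1.40e-08). Before scaling its counts were 3207, 3249 and 3284 against 2881, 2910 and 2801, also without overlap. MXD3, a repressor found mostly in cycling cells, had 3.48, 3.22 and 2.93 normalized CPM in the Control group and 3.08, 2.58 and 3.21 with ATRA. The groups overlapped, and the log2FC of -0.12 had a 95% interval from -0.471 to 0.238 (adjusted p = 0.530).

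The make-up of the MXD reads differed between groups. MXD4 held 84.3% ± 0.879 of the reads on the 4 MXD genes without ATRA and 48.9% ± 1.96 with it (SD, n = 3 each). MXD1 went from 9.47% ± 0.787 to 34.0% ± 1.31 and MXI1 from 3.56% ± 0.568 to 15.0% ± 0.952 (SD, n = 3 each). MXD3 held 2.65% ± 0.243 and 2.17% ± 0.297 (SD, n = 3 each). These are shares of reads and also depend on transcript length, which is the same in both groups if the isoforms are. Of the reads on all 9 network genes, the 4 MXD genes together took 34.6% ± 0.775 in the Control group and 32.4% ± 0.794 with ATRA (SD, n = 3 each). MYC and MYCL together took 26.5% ± 0.353 and 31.2% ± 0.715 of the network's reads (SD, n = 3 each). These shares were computed after the values of the single genes were seen and carry no test.

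**Figure D2:**
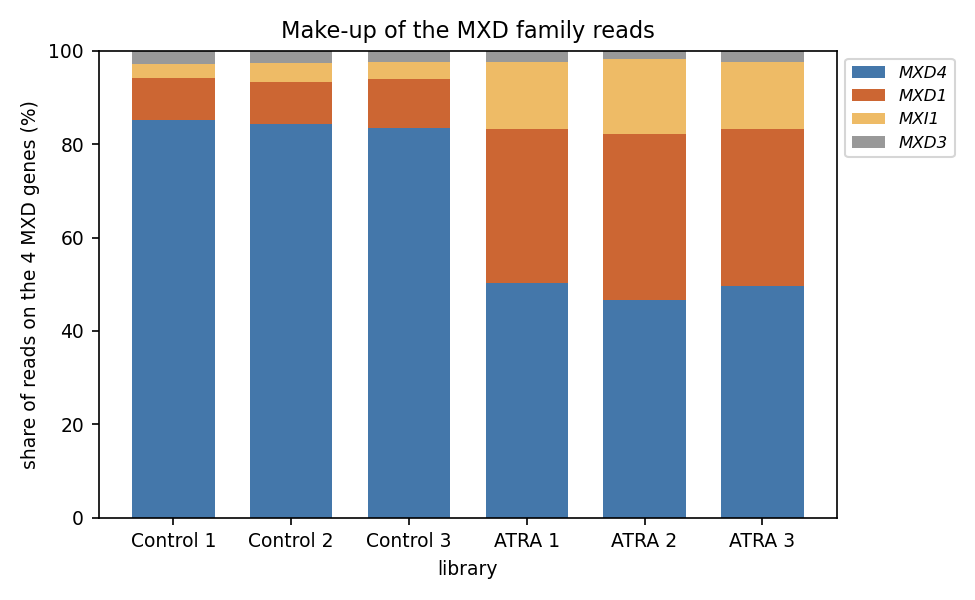
Share (%) of the reads on the 4 MXD genes that fell on each gene, as stacked bars for each of the 6 libraries. MXD4 fills 83.5% to 85.2% of the bar in the Control libraries and 46.6% to 50.3% in the ATRA libraries, where MXD1 and MXI1 take the difference.

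MNT, a broadly expressed repressor that also binds MAX, had 29.4, 25.6 and 27.9 normalized CPM in the Control group and 28.3, 29.5 and 27.8 with ATRA. Its log2FC of 0.04 had a 95% interval from -0.117 to 0.207 (adjusted p = 0.598). MGA, the large partner of MAX in a Polycomb complex, had 29.7, 29.9 and 31.7 in the Control group and 26.5, 33.0 and 28.6 with ATRA. Its log2FC was -0.0497 (95% interval -0.227 to 0.127, adjusted p = 0.594). Both genes overlapped between groups, and the intervals leave room for changes up to the bounds given. The highest MGA library was ATRA replicate 2. Without it the log2FC of MGA was -0.150 (adjusted p = 0.0766).

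The size of these changes depended on the scaling between libraries. Dividing by library size only raised the median log2FC of all tested genes from 0.04 to 0.52, and the members moved by nearly the same amount. On that scale MYC had a log2FC of 0.96, MAX 0.76, MXD1 2.50, MXI1 2.73 and MYCL 1.97. MXD4 was at -0.13 (adjusted p = 0.0340). MNT and MGA were at 0.52 and 0.43 and passed the threshold, and MXD3 changed sign to 0.36 (adjusted p = 0.0511). Relative to the median gene, MYC was 0.44, MYCL 1.46, MAX 0.24, MXD1 1.98, MXI1 2.21 and MXD4 -0.65 on the log2 scale under TMM and also with library size only. MNT was 0.01 above the median gene under both.

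**Figure D3:**
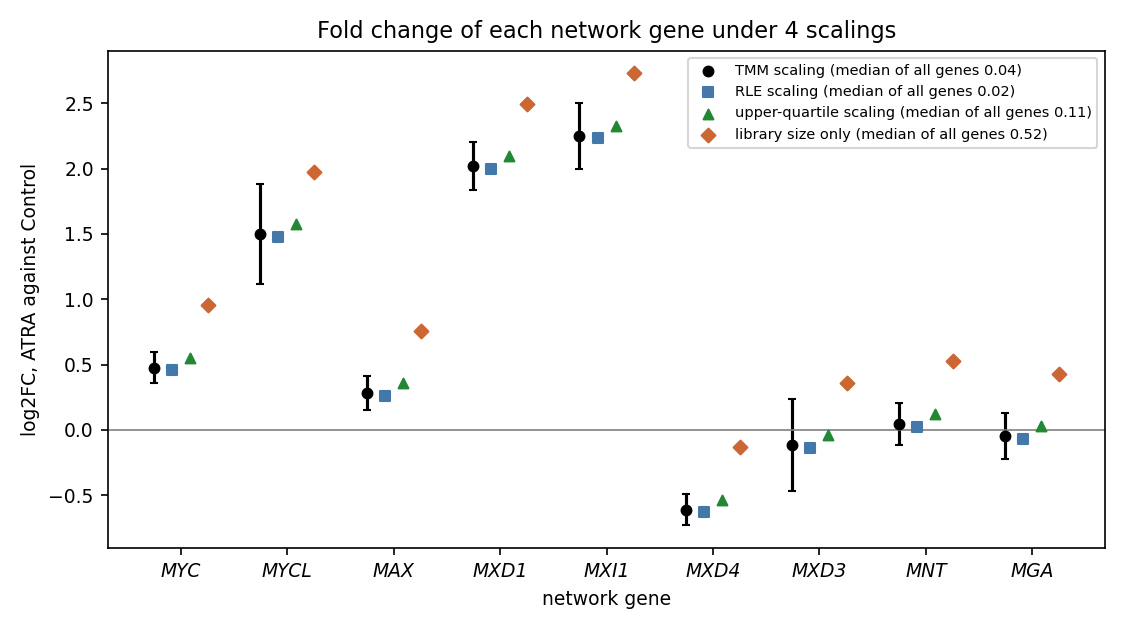
Log2FC of the 9 tested members under 4 ways of scaling the libraries, with 95% intervals for TMM. Library size only shifts the members upward together and brings MNT, MGA and MXD3 above 0, whereas MXD1 and MXI1 are near or above 2.0 and MXD4 is below 0 under each scaling.

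Ratios within a library do not depend on the scaling, so each member was set against MAX. The log2 ratio of MYC to MAX reads was 0.202, 0.213 and 0.247 in the Control libraries and 0.416, 0.469 and 0.362 in the ATRA libraries. The ATRA libraries were all higher, by 0.195 on the log2 scale. The ratio to MAX rose by 1.20 for MYCL, 1.74 for MXD1 and 1.98 for MXI1. It fell by 0.89 for MXD4, 0.40 for MXD3, 0.24 for MNT and 0.34 for MGA. Control and ATRA libraries were apart for 7 of the 8 ratios, each with a p of 0.1 (exact permutation test, two-sided), the smallest that 3 libraries against 3 allow, and an adjusted p of 0.114. For MGA the groups overlapped (exact permutation test, p = 0.2, adjusted p = 0.2). The design cannot bring such a test under 0.05.

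Between members, the log2 ratio of MYC to MXD4 reads went from -0.16 ± 0.0438 to 0.93 ± 0.0314 (SD, n = 3 each), and that of MYC to MXD1 from 3.00 ± 0.132 to 1.45 ± 0.119 (SD, n = 3 each). MYC reads thus rose relative to MXD4 and fell relative to MXD1 in the same libraries. The ratio of MXD1 to MXD4 moved by 2.63 and that of MXI1 to MXD4 by 2.87 on the log2 scale. These pairs were chosen after their values were seen and were not tested.

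Across the 6 libraries, the genes whose log2 normalized CPM was most like that of MYC were ZNF598, KRI1, MOB3A, USP40 and TSC2. Their Pearson correlations were 0.9999, 0.9996, 0.9994, 0.9993 and 0.9993 among 8595 genes with a mean of at least 10 normalized CPM. ZNF598 encodes a ubiquitin ligase that senses stalled ribosomes, and TSC2 encodes an inhibitor of mTOR signaling. The log2FC of these genes lay between 0.66 (ZNF598) and 1.41 (KRI1), against 0.48 for MYC. The 6 points share the group difference, and 2028 genes reached at least 0.95.

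The partners and regulators of the network were described from lists of genes written from textbook knowledge. The parallel branch around MLX, which pairs with MLXIP and MLXIPL to sense sugar, had 5 tested genes. MLXIP rose (log2FC 0.34), as did MLXIPL, from 0, 2 and 3 counts in the Control libraries to 153, 152 and 99 with ATRA. MLXIPL passed the filter on low counts only through the ATRA libraries, so it could only be called higher. TXNIP, the classic target of this branch, fell by 0.77 on the log2 scale. MLX was lower at -0.15 (adjusted p = 0.0422) but higher at 0.33 with library size only. The number of lower genes in this list was 1 and not 2 under 9 of 14 alternatives, among them 5 of the 6 fits with a library left out (each but ATRA replicate 1). ARRDC4, another target, had a log2FC of -0.0451 (adjusted p = 0.551). Among 8 tested E-box factors outside the network (TFEC was not tested), 5 were higher and 2 lower (6 and 1 with library size only). MITF (log2FC 1.33), USF2 (0.71) and USF1 (0.46) rose, whereas SREBF2, which controls sterol synthesis, fell by 1.58. TFAP4 was lower at -0.43 but near 0 (0.0444) with library size only.

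Of 15 coactivators that MYC is known to recruit, 9 were higher, 3 lower and 3 did not pass the threshold, with a median log2FC of 0.20. Library size only gave 12 higher and 1 lower. CCNT1 (0.76) and CDK9 (0.57), the subunits of the kinase that releases paused polymerase, and TRRAP (0.59), a scaffold of acetyltransferases, rose. RUVBL1, an ATPase of chromatin complexes, fell by 1.45. RUVBL2 (-0.46) and KAT2A (-0.40) were lower, but their log2FC was 0.02 and 0.08 with library size only. Of 15 corepressors that serve the MXD proteins and MNT, 11 were higher and 4 lower (12 and 2 with library size only), with a median log2FC of 0.22. SIN3B (0.98), NCOR1 (0.74) and ING1 (1.03) rose. HDAC1 fell by 0.92 and RBBP7 by 1.22, and SAP18 was at -0.49 (-0.00860 with library size only). SIN3A, the other scaffold, had a log2FC of 0.34 and HDAC2 of 0.17, both higher.

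The complex of MGA, MAX and Polycomb proteins had 9 other subunits on the list, of which 3 were higher and 4 lower. With library size only, 6 were higher and 0 lower. E2F6 (0.65), PCGF6 (0.40) and RING1 (0.24) rose. CBX3 (-0.58), TFDP1 (-0.40) and L3MBTL2 (-0.38) were lower, but TFDP1 and L3MBTL2 were at 0.08 and 0.10 with library size only. Of 17 genes whose products act on the stability of MYC protein, 9 were higher and 7 lower. Scaling by library size only gave 11 higher and 4 lower, and GSK3B, CIP2A and USP36 changed sign. The ligase gene BTRC (0.66) and the deubiquitinase genes USP37 (0.89) and USP28 (0.42) rose, as did FBXW7, whose product marks MYC for degradation (0.30). The ligase gene FBXO32 fell by 2.38, and the mitotic kinase genes AURKA and PLK1 fell by 5.11 and 2.51. The counts measure transcripts, so the amount of MYC protein was not measured.

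Of 27 tested genes that MYC is known to induce, 15 were lower, 5 higher and 7 did not pass the threshold. Their median log2FC was -0.30, against 0.04 over all tested genes. With library size only, 8 were lower and 15 higher, and the median was again 0.34 below that of all genes. PTMA, a chromatin-associated protein gene, fell by 1.15, SRM of spermidine synthesis by 1.10, and FBL, the methyltransferase of ribosomal RNA, by 1.09. LDHA (listed as LDH-A), which makes lactate, rose from 422 ± 20.1 to 2249 ± 32.3 normalized CPM (SD, n = 3 each, log2FC 2.41). TFRC, the transferrin receptor (1.29), and ODC1, the first enzyme of polyamine synthesis (0.50), also rose. Reads of PTMA could be shared with processed copies of the gene, so its value is uncertain.

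Of 14 tested genes that MYC is known to repress, 8 were higher and 6 lower, with a median log2FC of 0.73. Library size only gave 8 higher and 3 lower. CDKN1A, the cell cycle inhibitor, rose from 155 ± 3.91 to 616 ± 13.02 normalized CPM (SD, n = 3 each, log2FC 1.99). NDRG1 (2.67) and the ferritin gene FTH1 (2.84) rose more, the latter uncertain because of its near-identical copies. THBS1 (log2FC -6.19), GAS1 (-4.64) and the collagen gene COL1A2 (-3.87) fell. CDKN2B and PDGFRB were lower at -0.32 and -0.44 but at 0.16 and 0.04 with library size only. For each of the 8 lists, the number of members called stands beside 40.9% higher and 38.7% lower among all tested genes. The list counts with library size only stand beside 7921 higher and 2861 lower of the 12588 tested genes on that scale. No list was tested as a group.

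**Figure D4:**
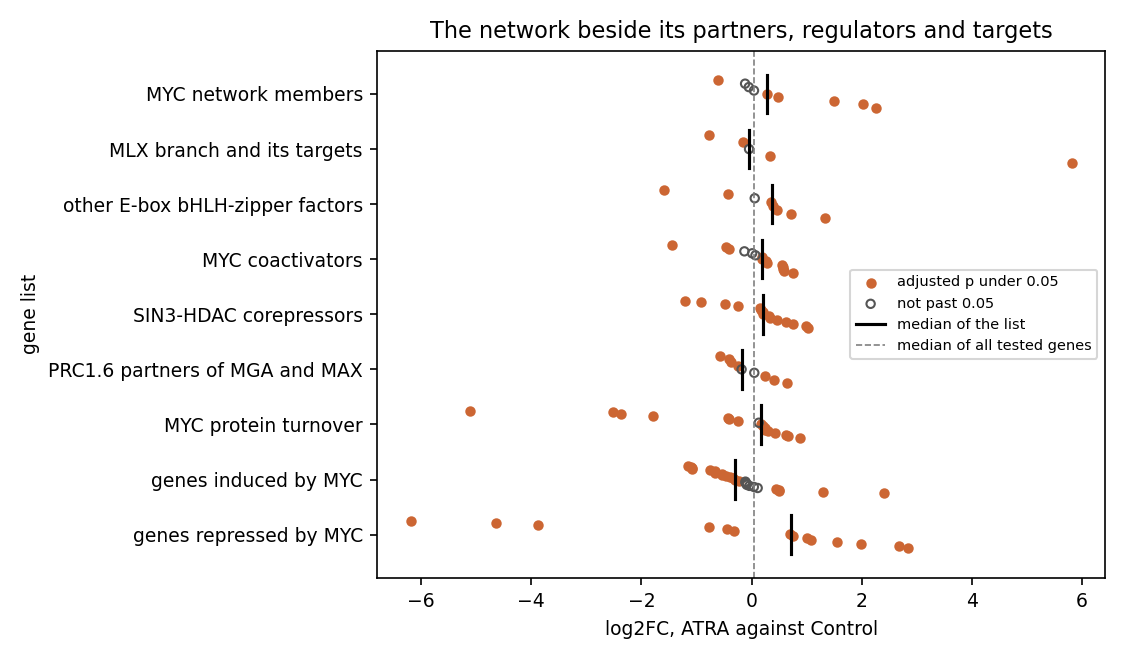
Log2FC (ATRA against Control) of each tested gene of the network and of the 8 lists, filled where the adjusted p was under 0.05, with the median of each list as a black bar and that of all tested genes as a dashed line. Genes induced by MYC have a median left of the dashed line and genes repressed by MYC one to its right, with members on both sides in each.

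Other features of the cultures moved with the groups. All 8 proliferation markers examined were lower with ATRA, against 38.7% of all tested genes. Their median log2FC was -4.86, and MKI67 and PCNA had -10.31 and -1.496. The summed level of the 6 tested papilla and mesenchymal markers went from 27121 to 29705 normalized CPM in the Control libraries to 1752 to 1799 with ATRA. Its ACTA2 reads could be divided with those of a near-identical actin gene. The 2 tested leukocyte markers, CD68 and CD14, summed to 9.15 to 12.8 in the Control libraries and 41.1 to 44.0 with ATRA, while CD3E and CSF1R had at most 7 counts in any library. Tested endothelial markers summed to 0.591 to 1.05 in the Control libraries and 6.19 to 9.11 with ATRA. Among them, mean TEK went from 0.619 normalized CPM in the Control group to 1.13 with ATRA, and VWF from 0.229 to 0.241. PECAM1, also among them, went from 0 counts in each Control library to 242, 340 and 206 with ATRA. It passed the filter on low counts only through the ATRA libraries. CDH5 had at most 1 count in any library, and KDR went from 5, 6 and 10 counts to 2, 1 and 0. KRT10, the only keratinocyte marker tested, rose (log2FC 0.82). KRT14 went from 20, 14 and 10 counts in the Control libraries to 3, 0 and 0 with ATRA. KRT5 went from 2, 7 and 3 counts to 0 in each ATRA library, and CDH1 from 0 in each Control library to 2, 1 and 2. PMEL, the only melanocyte marker tested, fell by 0.90 on the log2 scale. Bulk counts cannot tell fewer cells of a type from less RNA per cell. The part of these shifts in the changes of MYC, MXD1, MXI1 and MXD4 was not tested.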

How the data were processed

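The study's methods describe oligo(dT) enrichment of mRNA, quality control in fastp and trimming in TrimGalore. The authors deposited raw read counts per gene, and the submitters' processing notes name HISAT2, featureCounts and DESeq2. The genome build and any strand setting are not given in the sources used here. The 6 count columns were used, with the GO column as annotation.

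After filterByExpr (12588 of 15944 genes) and TMM scaling, edgeR's robust quasi-likelihood model compared both groups (two-sided, prior count 0.125, no covariate). The two-sample function that the methods name was an alternative only, since it does not model counts. The standard error is |log2FC| over the square root of F. One normalized CPM equals 31.0 to 44.1 counts. In simulated counts (12588 genes, 200 changed), edgeR recovered 200 and called 7 unchanged genes. Far fewer genes changed there than were called here. The difference in TMM factors between groups was left out, so the simulation does not test the scaling. Ratios used an offset of 0.5.

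The members and lists were chosen with earlier results of these data known. Named from each of the 8 lists are at most 3 genes per direction, those of smallest adjusted p under 0.05 with a mean of at least 1 normalized CPM, besides MKI67, PCNA and the 5 genes most like MYC (genes under LOC numbers left out). ARRDC4, SIN3A, HDAC2, FBXW7, GSK3B, CIP2A, USP36, CDKN2B, PDGFRB and the single markers were named after their values were seen. LDHA was matched as LDH-A, CIP2A as KIAA1524, and CLU, on the list of genes repressed by MYC, as LOC102182127.

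Alternatives were DESeq2, the two-sample function on log2(CPM + 1), 3 other scalings, 2 other filters, prior count 2, the study's thresholds, a replicate block, a ratio offset of 5 and each library left out. Software was edgeR 4.0.16 with limma 3.58.1 and DESeq2 1.42.0 in R 4.3.3, and matplotlib 3.10.9 with pandas 2.3.3 in Python 3.11.15.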

Additional observations from a re-analysis of the deposited data

How the results depend on the processing

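The number of members called higher (5) and lower (1) was the same under DESeq2, the two-sample function, RLE and upper-quartile scaling, both other filters, the replicate block and each library left out. With library size only, 7 were higher and 1 lower. With the study's thresholds, 3 were higher and 0 lower. Library size only turned MXD3 to 0.36 and MGA to 0.43, and brought MNT to 0.52 and past the threshold. Upper-quartile scaling turned MGA to 0.0270. With each library left out in turn, the log2FC of MNT ranged from -0.00850 to 0.0924 and that of MGA from -0.150 to 0.0135. Neither passed the threshold with a library left out. MNT turned below 0 without Control replicate 2 and MGA above 0 without ATRA replicate 1. For all genes, library size only gave 7921 higher and 2861 lower, and the study's thresholds gave 1730 and 2174, against 5151 and 4877. The log2FC of MYC, MYCL, MAX, MXD1, MXI1 and MXD4 had the same sign and an adjusted p under 0.05 in each of 15 alternatives. MYC ranged from 0.44 to 0.96 and its adjusted p from 6.10e-13 to 0.00772. MYCL was lowest, 1.08, with the two-sample function on log2(CPM + 1). Of 224 list counts under alternatives, 204 lay within 1.5 times the count reported. Leaving out a library or using an offset of 5 moved each ratio to MAX by less than the SD pooled over both groups, though for MYC, MYCL, MNT and MGA by more than the SD of the Control libraries alone. The replicate block cannot change these ratios.

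Same-numbered Control and ATRA libraries did not consistently deviate together (correlations over 9030 genes of 0.330, -0.0322 and -0.265). With 3 libraries per group, these correlations cannot tell whether the numbers pair the samples. With the replicate block, MYC had a log2FC of 0.48 and MGA -0.0543, 5123 genes were higher and 4869 lower, and no call on a member changed. Levels near those of MYCL and MXD3 rest on 48 to 211 counts, where the intervals are widest.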

Other observations

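The annotation in the deposited table places MYC and MAX under the GO term E-box binding, which has 27 tested genes. Of these, 7 were higher and 16 lower with ATRA, against 40.9% higher and 38.7% lower among all tested genes, with a median 0.47 below that of all tested genes on the log2 scale. With library size only, 12 were higher and 9 lower, against 7921 and 2861 of the 12588 tested genes, and the median was again 0.47 below. MAX and MGA carry the term MLL1 complex, a histone methyltransferase assembly. Of its 26 tested genes, 13 were higher and 5 lower, against the same shares of all tested genes, with a median 0.13 above that of all tested genes. With library size only, 22 were higher and 3 lower, against 7921 and 2861 of the 12588 tested genes. The median was again 0.13 above that of all tested genes.

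In the gene order of the RefSeq table (assembly ARS1.2, used only for which genes are neighbours), some genes beside the called members were tested too. MXI1 rose, while its neighbours SMNDC1 and ADD3 had a log2FC of 0.20 (adjusted p = 0.0587) and -0.86 (adjusted p = 2.34e-09) in edgeR's quasi-likelihood test. SNRNP27, beside MXD1, had a log2FC of 0.05 (adjusted p = 0.553). HAUS3 and ZFYVE28, on either side of MXD4, had -0.61 and -0.73, close to the -0.61 of MXD4 itself. FUT8, beside MAX, fell by 1.97, and LOC102189488, on the other side of MAX, had -0.37. Beside MYCL, which rose, TRIT1 had a log2FC of 0.49 and MFSD2A of -0.90. Neighbours of MYC were not analysed here.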
